A study of Mus musculus with 8 samples.

Results

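RORγt-deficient T cells that had also received digoxin were compared with wildtype T cells that had received the solvent DMSO, across all genes of the array. The comparison rests on 4 of the 8 arrays of the series, 2 labelled as RORγt-deficient with digoxin and 2 as wildtype with DMSO, chosen by their titles. All cells were C57BL/6 naive CD4 T cells, isolated by cell sorting and stimulated through CD3 and CD28, and RNA was taken after 48 h under Th17-inducing conditions. The other 4 arrays, RORγt-deficient cells in DMSO and wildtype cells in digoxin (2 each), show each perturbation alone and are given beside the combined one. The wildtype DMSO cells carried neither perturbation, and the deficient cells had the same culture and strain as the wildtype cells. Neither the kind of RORγt mutation nor the digoxin dose is stated in the sources used. The targeted gene itself was not analysed here, so the genotypes rest on the labels alone.

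RORγt is a nuclear receptor that binds DNA at sites containing the half-site AGGTCA. It directs the Th17 programme, the state in which CD4 T cells make interleukin 17 and guard mucosal surfaces. Digoxin is a cardiac glycoside, known as an inhibitor of the Na,K-ATPase and described as an antagonist of RORγt. The series' title states that second action, and cells that lack the receptor while receiving the drug bear on which of the drug's effects need the receptor.

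Every deposited value is a log2 difference from the wildtype DMSO mean, so this group stands at 0 for each gene and its 2 values mirror each other. Where a level range is given, it is the range of the gene's lowest array on the RMA log2 scale before that centring, read back from the precision of the deposited numbers. On the leading principal component, which held 40% of the variance, the deficient digoxin arrays scored 5.15 and 18.3 and the wildtype DMSO arrays -13.3 and -19.9. The deficient DMSO arrays scored -3.43 and 14.8 and the wildtype digoxin arrays -11.1 and 9.54. Replicate 1 thus lay well below replicate 2 in each perturbed group, so this component does not hold the combined effect alone. Over genes, with 1 probe set each, the difference between both arrays had an SD of 0.211 in deficient digoxin and 0.182 in wildtype DMSO. The control probe sets for 18S ribosomal RNA averaged -0.43 and 1.62 on the deficient digoxin arrays and 0.72 and -0.72 on the wildtype DMSO arrays, so the groups overlapped in this signal. The control probe sets of Gapdh and beta-actin lay between -0.09 and 0.22 on all 4 arrays. The 7 measured genes that define CD4 T cells, among them Cd4 and Cd3e, all lay in the level range from 8 to 16 and none was called, although 1 was called higher with the mean of each gene's probe sets.

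The combined loss of RORγt and addition of digoxin lowered the gene for interleukin 17A more than any other gene, lowered mitotic and amino acid supply genes, and raised genes of cytotoxic granules, NK receptors and interleukin 10. With limma, 287 of 18193 genes (1.58%) passed an adjusted p of 0.05 and are termed called, 96 of them higher (0.528%) and 191 lower (1.05%). Of these, 56 differed at least 2-fold, 19 higher and 37 lower. The median of all genes was 0.03 and 2724 genes reached 0.05 before adjustment. In all 287 called genes the 2 arrays of one group lay wholly above or below the other 2, as they did in 49.2% of all genes. The count of calls fell when any 1 of the 4 compared arrays was left out. Such a fit has 1 array in that group and a less precise difference, so calls can be lost for this reason alone. Its share in the lost calls was not tested. In all, 20 genes, 11 higher and 9 lower, were called with each of the 8 arrays left out in turn. With the 18S signal of each array as a covariate, an alternative chosen after seeing the data, 576 genes were called, including all 287.

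**Figure D1:**
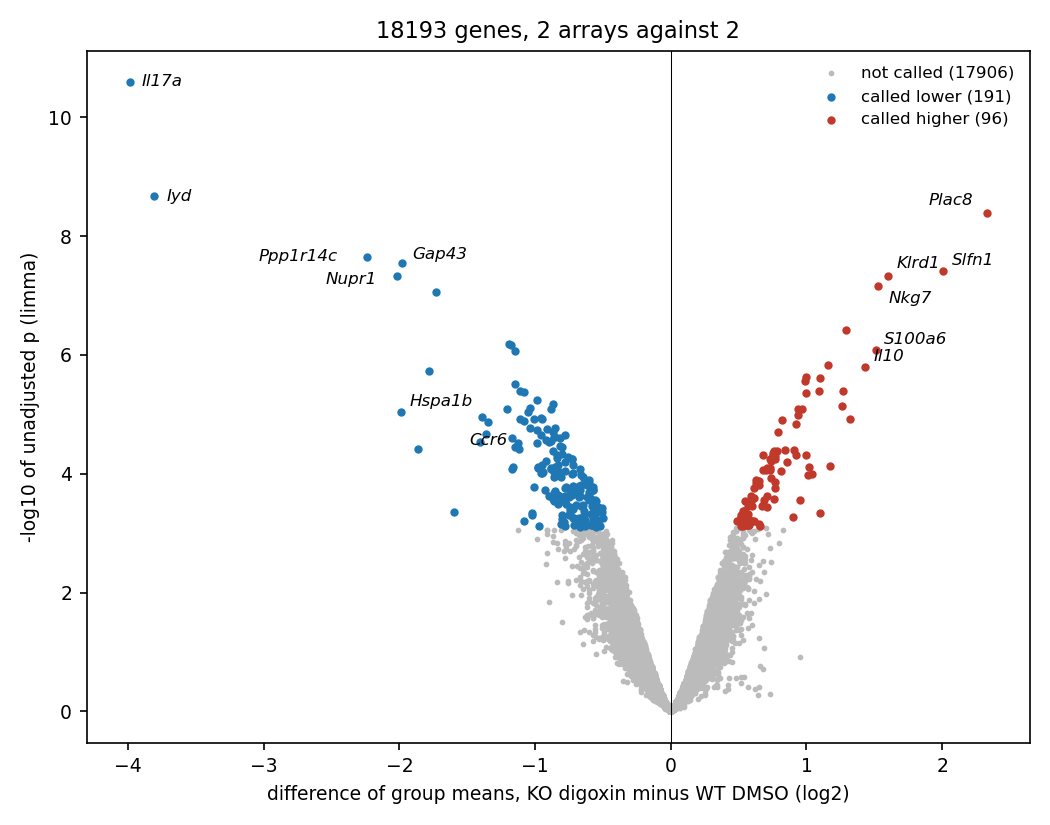
Each point is 1 of 18193 genes; the horizontal axis is the difference of group means in log2 (RORγt-deficient digoxin minus wildtype DMSO, 2 arrays each) and the vertical axis the negative log10 of limma's unadjusted p. Blue points are the 191 genes called lower and red points the 96 called higher; Il17a lies farthest to the left at -3.99 and Plac8 farthest to the right at 2.33.

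Il17a, which encodes the signature cytokine of Th17 cells, had values of -3.87 and -4.12 on the deficient digoxin arrays against -0.02 and 0.02 on the wildtype DMSO arrays. Each perturbation alone left it between: -2.01 and -2.21 in deficient cells without drug, -2.35 and -2.44 in wildtype cells with drug. No 2 of the 4 groups overlapped, and the single perturbations lay close to each other. The combined fall was 15.9-fold (-3.99 ± 0.12, SE, n = 2 arrays per group, adjusted p = 4.67e-07), with the lowest array still in the level range from 4 to 8. Digoxin lowered Il17a further in cells that already lacked RORγt (-1.88 ± 0.12, adjusted p = 0.000634). Loss of RORγt in turn lowered it further in cells that already had digoxin (-1.60 ± 0.12, adjusted p = 0.00299), a call that was lost without deficient digoxin replicate 2 (-1.47, adjusted p = 0.0982). Both of these added steps were lost after quantile normalisation of the centred values (-0.79 and -0.52, adjusted p = 1 each), which also left only 10 genes called in the combined comparison.

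In each added step Il17a was the only gene called, 1 of 18193 (0.0055%) for digoxin added to RORγt loss and 1 of 18193 (0.0055%) for RORγt loss added to digoxin. The count for the latter step was 2 with the replicate number as a block, 23 with a variance trend and, in an alternative chosen after seeing the data, 27 with a block in which the wildtype DMSO numbers were crossed. Deviations of same-numbered arrays correlated at 0.454, 0.336 and 0.325 among the 3 perturbed groups and between -0.242 and -0.136 with wildtype DMSO. At an unadjusted p under 0.05, the former step held 639 genes and the latter 1003. If no gene differed, a share of 0.05 of the 18193 genes would be expected there. The former count lay below that share and the latter slightly above it. All comparisons here share arrays with the combined one, and their values are set side by side only as a description.

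Because the RORγt half-site is a defined sequence, the promoter of Il17a is shown with that of Iyd. This gene had the next largest fall when genes named only by a clone or locus number are left out. The sequences are RefSeq windows of the GRCm38.p6 assembly, from 250 bases before to 50 after the annotated start, read 5′ to 3′ on the gene's strand. Il17a is at chr1:20730655-20730954 and Iyd at chr10:3540024-3540323, both on the plus strand. Capitals mark every match to AGGTCA on either strand, so a match on the minus strand reads as its reverse complement.
Il17a: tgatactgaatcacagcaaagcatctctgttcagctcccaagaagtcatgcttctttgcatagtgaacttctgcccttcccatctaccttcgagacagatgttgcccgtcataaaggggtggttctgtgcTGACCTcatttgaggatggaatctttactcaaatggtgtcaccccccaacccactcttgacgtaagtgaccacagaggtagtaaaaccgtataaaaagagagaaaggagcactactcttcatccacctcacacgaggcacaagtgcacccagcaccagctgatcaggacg
Iyd: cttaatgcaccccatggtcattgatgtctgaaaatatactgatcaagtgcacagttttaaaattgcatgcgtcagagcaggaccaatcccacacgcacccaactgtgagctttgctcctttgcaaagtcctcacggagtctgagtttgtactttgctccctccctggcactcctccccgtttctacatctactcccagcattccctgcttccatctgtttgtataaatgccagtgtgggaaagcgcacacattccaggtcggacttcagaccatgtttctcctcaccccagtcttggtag

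The Il17a window held 1 match, on the minus strand, whose first base lay at position -120 from the start. The Iyd window held none. Over all genes tested with a promoter window, 2383 of 14452 (16.5%) held AGGTCA on either strand, against 25 of 161 (15.5%) among genes called lower and 10 of 74 (13.5%) among genes called higher. The longer string TAGGTCA, which contains the half-site, was in 2.57% of all windows, 4.35% of those called lower and 4.05% of those called higher, the last 2 being 7 and 3 genes. The shares of the half-site among called genes were thus no higher than among all genes, while those of the longer string were higher, on few genes. A match in such a window describes letters only.

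The Th17 effector list had 11 measured members, of which 5 fell and none rose, with a median of -0.53 against 0.03 over all genes and 1.05% of all genes called lower. Ccr6, the receptor that guides Th17 cells to tissue producing its ligand, had values of -0.96 and -1.27 against -0.14 and 0.14, and fell 2.17-fold (-1.12 ± 0.16, adjusted p = 0.0097). Furin, a protease that cleaves cytokine precursors, stood at -1.41 and -1.37 and fell 2.63-fold (-1.39 ± 0.17, adjusted p = 0.00496). Csf2, the gene for the inflammatory cytokine GM-CSF, stood at -0.81 and -0.75 (-0.78 ± 0.12, adjusted p = 0.0139). Both groups were apart in each of these genes, as in all 287 called genes and in 49.2% of all genes. The fifth was Ltb4r1, a leukotriene B4 receptor (-0.61, adjusted p = 0.025), a gene named after its value was seen. Ccl20, the ligand of Ccr6, was lower by less than the threshold (-0.53 ± 0.14, adjusted p = 0.125). Il1r1, an interleukin 1 receptor, had values of -0.13 and -0.08 and was not called (-0.11, adjusted p = 0.684). The 5 falls became 3 and 1 without wildtype DMSO replicate 1 or 2, and 1 without either deficient digoxin array, where Il17a stayed called throughout.

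Transcription factors of the Th17 programme (16 measured, median -0.04) included 2 genes called lower, beside 1.05% of all genes, and none called higher. Vdr, the vitamin D receptor, had values of -0.76 and -0.90 against -0.16 and 0.16 (-0.83 ± 0.13, adjusted p = 0.0134). Fosl2, an AP-1 family factor, had -0.96 and -0.65 against 0.21 and -0.21 (-0.80 ± 0.16, adjusted p = 0.0391), but its other probe set gave 0.28. Neither call held without either deficient digoxin array. Maf, a factor that also drives interleukin 10, was the highest of the list, with values of 0.66 and 0.60 against -0.09 and 0.09 (0.63 ± 0.18, adjusted p = 0.151). Its other 5 probe sets gave 0.24 to 1.02, and the highest of them passed the threshold when all probe sets were tested (adjusted p = 0.00537). The list had 1 member called higher with the mean of each gene's probe sets and with only the compared arrays in the fit, so the absence of a rise rests on these choices. Rora, a relative of RORγt, stayed near 0, with values of 0.22 and -0.05 (0.08 ± 0.14, adjusted p = 0.81), and the interval of its difference ran from -0.22 to 0.39.

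**Figure D2:**
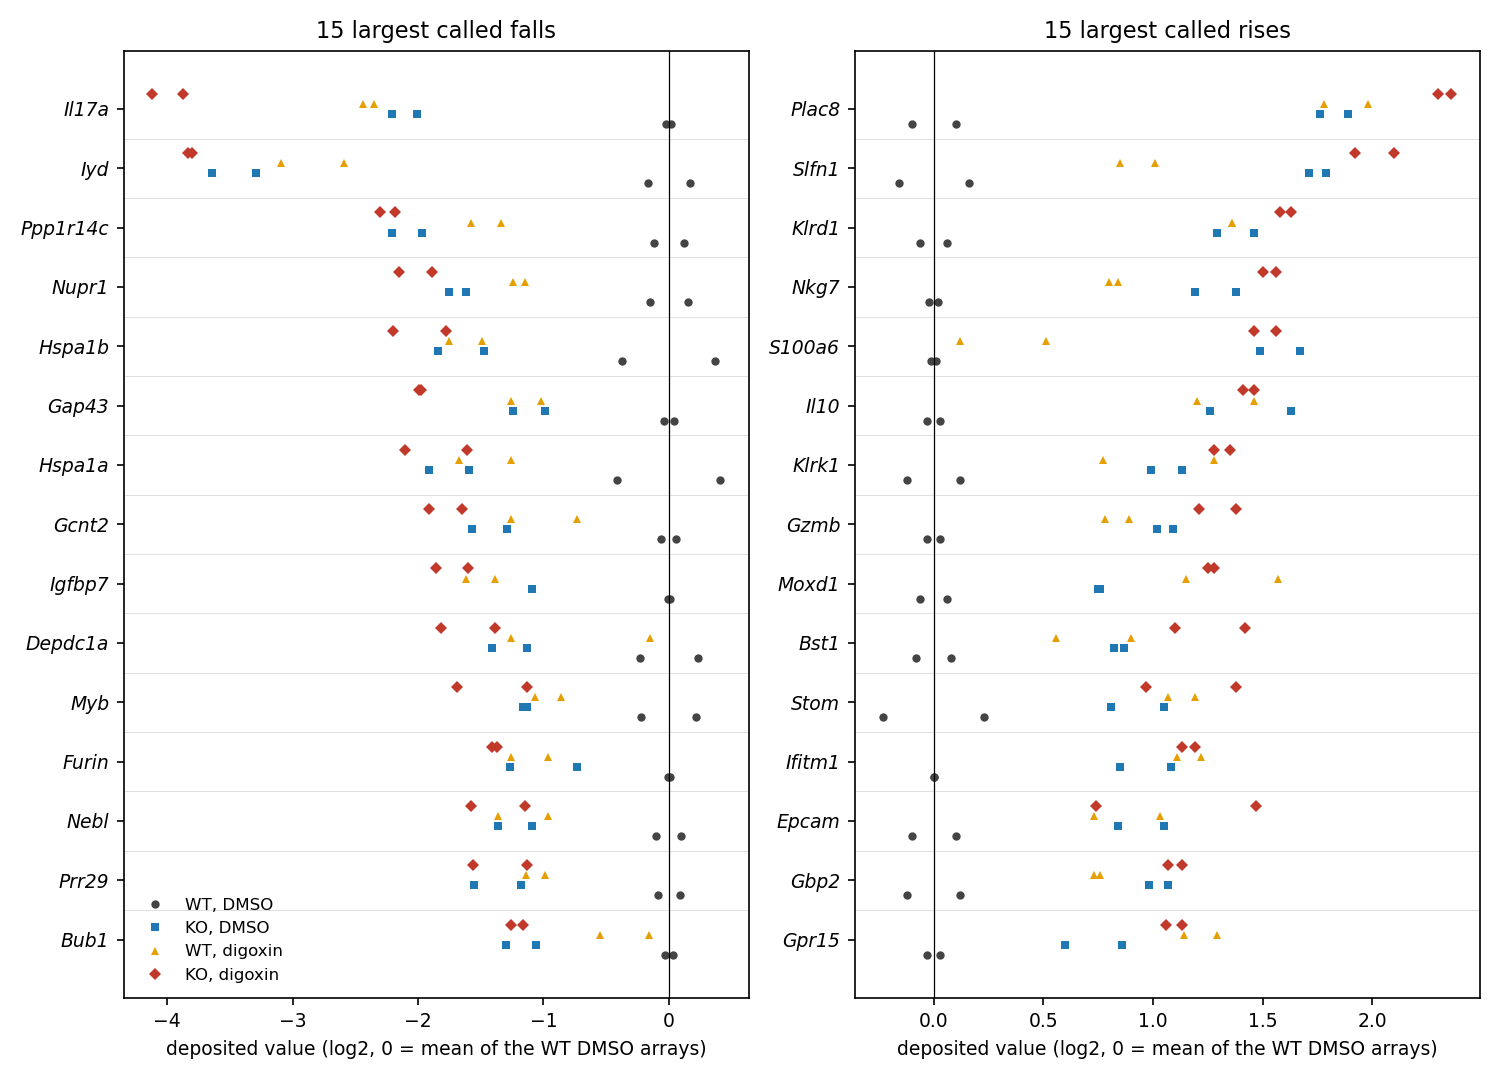
Values of the 15 genes with the largest called falls (left) and the 15 with the largest called rises (right), leaving out genes named only by a clone or locus number. The horizontal axis is the deposited log2 value with the wildtype (WT) DMSO mean at 0, and each symbol is 1 array, 2 per group, with KO for RORγt-deficient. Both deficient digoxin arrays lie on one side of both wildtype DMSO arrays in every gene, as the choice of these genes required. Il17a lies at -3.87 and -4.12 with both perturbations and between -2.01 and -2.44 with either alone.

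Leading falls and rises were taken without genes named only by a clone or locus number. The 15 largest falls had a median of -1.36 in deficient cells without drug and -1.16 in wildtype cells with drug, relative to wildtype DMSO. Digoxin added -0.33 (median) to RORγt loss in these genes, and RORγt loss added -0.78 to digoxin. The mean of deficient cells without drug lay nearer 0 than that of deficient digoxin in 14 of the 15, all except Prr29. These genes were chosen by the combined comparison, so the order of the groups in them is only a description.

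Iyd, which encodes the iodotyrosine deiodinase that recovers iodide in the thyroid, had values of -3.80 and -3.83 against -0.17 and 0.17. It stood at -3.29 and -3.64 in deficient cells without drug and at -2.59 and -3.09 in wildtype cells with drug, so all 6 perturbed arrays lay far below both wildtype DMSO arrays. The combined fall was 14.1-fold (-3.81 ± 0.19, adjusted p = 1.95e-05). Ppp1r14c, an inhibitor of protein phosphatase 1, followed with values of -2.30 and -2.18 and a 4.72-fold fall (-2.24 ± 0.14, adjusted p = 0.000102).

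Gap43, a growth cone protein of neurons, had values of -1.98 and -1.99, against -0.99 and -1.24 after RORγt loss alone and -1.02 and -1.26 after digoxin alone. Its deficient digoxin arrays lay below all other arrays, as those of Il17a did. It fell 3.96-fold (-1.98 ± 0.13, adjusted p = 0.000102), and the added step was -0.87 for digoxin (adjusted p = 0.417) and -0.84 for RORγt loss (adjusted p = 0.118), neither called. Myb, a transcription factor of immature and proliferating blood cells, had values of -1.13 and -1.69 (-1.41 ± 0.19, adjusted p = 0.00825), with other probe sets at -1.06 and -1.03. Igfbp7, an insulin-like growth factor binding protein, had -1.60 and -1.86 (-1.73 ± 0.12, adjusted p = 0.000159), while its other 2 probe sets gave -0.20 and 0.16. Gcnt2, a glycosyltransferase of branched glycans, had -1.65 and -1.91 (-1.78 ± 0.18, adjusted p = 0.00191), with other probe sets from -1.45 to -0.02. The probe sets of Igfbp7 and Gcnt2 therefore disagreed. Nebl (-1.36), Prr29 (-1.35) and Depdc1a (-1.60) completed the leading falls outside the lists below, and Depdc1a, whose wildtype digoxin arrays stood apart at -0.15 and -1.26, had the largest error of them (SE 0.31, adjusted p = 0.037). Of the 15 leading falls, 6 were called with each array left out in turn: Il17a, Iyd, Ppp1r14c, Nupr1, Gap43 and Igfbp7.

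Genes of mitosis and the G2/M phase formed the list with the most calls: 24 of 29 measured members fell and none rose, with a median of -0.86, beside 1.05% of all genes called lower. Bub1, a spindle checkpoint kinase, had values of -1.26 and -1.16 against -0.03 and 0.03 and fell 2.31-fold (-1.21 ± 0.14, adjusted p = 0.00431), with its other probe set at -0.54. Cenpe, a kinetochore motor protein, had -1.19 and -1.11 (-1.15 ± 0.11, adjusted p = 0.00104). Cenpf, a kinetochore protein, had -1.17 and -1.05 (-1.11 ± 0.12, adjusted p = 0.00293), with other probe sets from -0.76 to -0.04. Both groups were apart in 28 of the 29 members, beside 49.2% of all genes. Ccnb2, a mitotic cyclin, had -0.99 and -0.90 (-0.95 ± 0.12, adjusted p = 0.00496).

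By array, the list median was -0.85 and -0.79 in deficient cells with digoxin, -0.88 and -0.88 in deficient cells without drug, and -0.14 and -0.33 in wildtype cells with drug. The deficient arrays thus lay together with or without the drug, and the median step that digoxin added to RORγt loss was 0.01, against -0.58 for the step that RORγt loss added to digoxin. Top2a, the DNA topoisomerase of dividing cells, stood apart from its list at 0.06 and 0.43 (0.25, adjusted p = 0.503). Its probe set lay in the lowest level range, from 2 to 4, and it was named after its value was seen. Left-out arrays changed the count of mitotic falls to 14 and 2 without wildtype DMSO replicate 1 or 2, and to 1 and 2 without deficient digoxin replicate 1 or 2, while the median stayed between -0.98 and -0.71. After quantile normalisation no member was called and the median was -0.63. Genes of DNA replication and S phase had a median of -0.36, with 2 of 29 called lower, Cdc45 (-0.69, adjusted p = 0.023) and Pola1 (-0.57, adjusted p = 0.048), both part of the replication machinery, beside 1.05% of all genes. The other probe set of Cdc45 gave 0.04 and that of Pola1 -0.08, and no member of the list was called when any 1 of the 4 compared arrays was left out.

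Targets of the p53 tumour suppressor lay above 0 in 20 of 23 cases (median 0.26), beside 10310 of all 18193 genes. Only Ccng1, cyclin G1, was called (0.60 ± 0.11, adjusted p = 0.0315), beside 0.528% of all genes called higher. Its values were 0.64 and 0.56 with both perturbations, 0.57 and 0.62 after RORγt loss alone and 0.05 and 0.06 after digoxin alone, so the deficient arrays lay together here too. Its other probe sets gave 0.22 to 0.41, and the call was lost when any 1 of the 4 compared arrays was left out.

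Genes of the amino acid response, which the factor ATF4 induces when amino acids run short, had 9 of 24 members called lower and none higher, with a median of -0.56, beside 1.05% of all genes called lower. Nupr1, a stress-induced nuclear protein, had values of -2.15 and -1.89 against 0.15 and -0.15, with -1.62 and -1.75 after RORγt loss alone and -1.15 and -1.24 after digoxin alone. It fell 4.06-fold (-2.02 ± 0.14, adjusted p = 0.000107), and its other probe set gave -1.57. Asns, asparagine synthetase, had -0.91 and -0.86 (-0.88 ± 0.10, adjusted p = 0.00431). Chac1, a glutathione-degrading enzyme, had -0.75 and -0.95 (-0.85 ± 0.13, adjusted p = 0.0136). Slc7a5, the light chain of a transporter of large neutral amino acids, had -0.77 and -0.83 (-0.80 ± 0.11, adjusted p = 0.00938), and its heavy chain gene Slc3a2 (-0.56, adjusted p = 0.0271) fell as well. Each of these genes lay lower on both deficient digoxin arrays than on either wildtype DMSO array. No called gene overlapped between these groups, and 49.2% of all genes did not. Atf4 itself had values of -0.22 and 0.34 and was not called (0.06, adjusted p = 0.916), and Slc3a2 and Atf4 were named after their values were seen.

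The 9 falls became 2 and 3 without wildtype DMSO replicate 1 or 2 and 1 without either deficient digoxin array, and none was called after quantile normalisation. Genes for the cytosolic aminoacyl-tRNA synthetases, enzymes that load amino acids onto tRNA, were looked at after 4 of them were seen among the called genes. Of 16 measured, all 16 lay below 0, beside 7883 of all 18193 genes, with a median of -0.32. The 4 called, beside 1.05% of all genes called lower, were Nars (-0.57), Tars (-0.56), Mars1 (-0.55) and Iars (-0.52); as the group was looked at because of them, this count is only a description.

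Among cytosolic heat shock genes 2 of 18 fell, beside 1.05% of all genes, Hspa1b and Hspa1a, which encode nearly identical inducible chaperones of the HSP70 family. Hspa1b had values of -1.78 and -2.20 against 0.37 and -0.37 and fell 3.97-fold (-1.99 ± 0.24, adjusted p = 0.0045). Hspa1a had -1.61 and -2.10 against 0.41 and -0.41 (-1.86 ± 0.26, adjusted p = 0.0097). Their wildtype DMSO arrays differed more than those of the other leading genes, and probe sets of such close copies may share signal, so the 2 genes are not independent. The median of the list was -0.17. Neither gene was called without deficient digoxin replicate 2. The 22 genes of the endoplasmic reticulum stress response had a median of -0.14 and none was called. Hsp90b1, an ER chaperone of that list, stood at -0.47.

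The 15 largest rises, likewise chosen by the combined comparison, had a median of 1.05 after RORγt loss alone and 1.03 after digoxin alone. Digoxin added 0.24 (median) to RORγt loss in these genes and RORγt loss added 0.29 to digoxin. Plac8, a small cysteine-rich protein of immune cells, had values of 2.30 and 2.36 against -0.10 and 0.10, with 1.89 and 1.76 after RORγt loss alone and 1.98 and 1.78 after digoxin alone. It rose 5.02-fold (2.33 ± 0.12, adjusted p = 2.46e-05), and the deficient digoxin arrays lay above all others. Slfn1, a Schlafen gene known for restraining T cell growth, had 2.10 and 1.92 against 0.16 and -0.16 and rose 4.02-fold (2.01 ± 0.13, adjusted p = 0.000107), while its other probe set, in the lowest level range, gave 0.10. Slfn2, which keeps T cells quiescent, had 0.97 and 0.97 (0.97 ± 0.11, adjusted p = 0.00431), and these 2 were the only called members of 8 Schlafen genes measured, beside 0.528% of all genes called higher. Of the 15 leading rises, 9 were called with each array left out in turn: Plac8, Slfn1, Klrd1, Nkg7, S100a6, Il10, Gzmb, Ifitm1 and Gbp2.

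Il10, the gene for an immunoregulatory cytokine, had values of 1.46 and 1.41 against 0.03 and -0.03. After RORγt loss alone it stood at 1.63 and 1.26 and after digoxin alone at 1.46 and 1.20, so the 6 perturbed arrays overlapped each other and all lay above both wildtype DMSO arrays. The combined rise was 2.70-fold (1.43 ± 0.14, adjusted p = 0.00172). Il2, the growth factor gene of activated T cells, had values of -0.63 and -0.68 and fell 1.58-fold (-0.66 ± 0.11, adjusted p = 0.0154). The call of Il2 was lost when any 1 of the 4 compared arrays was left out. The master regulators of other T helper fates moved less. Tbx21, which encodes the Th1 factor T-bet, had values of 0.52 and 0.46 (0.49 ± 0.10, adjusted p = 0.0444), a call that did not survive leaving out any 1 of the 8 arrays. Gata3, the Th2 factor (0.02, interval -0.29 to 0.33), and Ifng, the Th1 cytokine (0.00, interval -0.42 to 0.42), were not called. The regulatory T cell factor Foxp3 had values of -0.23 and 0.22 (interval of the difference -0.35 to 0.34), and Il4, the Th2 cytokine, -0.01 and -0.12 (-0.06, adjusted p = 0.834). Foxp3, Ifng and Il4 all lay in the lowest level range, from 2 to 4, where a change in a rare transcript may not be detectable.

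Of all genes, 0.528% were called higher. Of the Th1 list, 3 of 13 members rose: Tbx21, Il12rb2, an interleukin 12 receptor chain (0.77, adjusted p = 0.0183), and Cxcr3, a chemokine receptor (0.68, adjusted p = 0.0139). The list's median was 0.03. The regulatory T cell list had 2 of 14 called higher, Gpr83 (0.68, adjusted p = 0.0106) and Izumo1r, the folate receptor 4 gene (0.59, adjusted p = 0.025), with a median of 0.04. None of the 11 Th2 genes was called (median 0.02). No call in the Th1 and regulatory lists held when any 1 of the 4 compared arrays was left out. Among genes of naive and resting T cells, 2 rose, Txnip, which restrains glucose uptake (0.77, adjusted p = 0.0113), and Igfbp4 (0.75, adjusted p = 0.0107), and 10 of 11 members of that list lay above 0 (median 0.32), beside 10310 of all 18193 genes. The other 5 probe sets of Igfbp4 gave 0.32 to 0.51 and none passed (adjusted p from 0.125 to 0.295), and no member of the list was called when any 1 of the 4 compared arrays was left out.

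Genes known from cytotoxic lymphocytes rose in 2 of the lists. Of 12 NK cell receptor genes measured, 5 rose and none fell (median 0.34), and of 18 granzyme and cytotoxic granule genes 3 rose (median 0.29), beside 0.528% of all genes called higher. Klrd1, which encodes the receptor subunit CD94, had values of 1.58 and 1.63 against -0.06 and 0.06 and rose 3.04-fold (1.60 ± 0.11, adjusted p = 0.000107). Klrk1, the gene for the activating receptor NKG2D, had 1.35 and 1.28 (1.32 ± 0.16, adjusted p = 0.00496). Klrc1, which encodes the partner NKG2A of CD94, had 0.95 and 0.86 (0.90 ± 0.18, adjusted p = 0.0419). All 3 also lay higher on the 4 singly perturbed arrays than on the wildtype DMSO arrays. Slamf7 (0.71, adjusted p = 0.025) and Klre1 (0.61, adjusted p = 0.0214) were the other two.

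Nkg7, a cytotoxic granule protein, had values of 1.50 and 1.56 against 0.02 and -0.02 and rose 2.88-fold (1.53 ± 0.11, adjusted p = 0.000141). It stood at 1.19 and 1.38 after RORγt loss alone and at 0.84 and 0.80 after digoxin alone, with no overlap between the 4 groups. Gzmb, granzyme B, had 1.38 and 1.21 and rose 2.45-fold (1.29 ± 0.11, adjusted p = 0.000619), and Ctsw, a protease of cytotoxic cells, had 0.75 and 0.82 (0.78 ± 0.11, adjusted p = 0.0097). Without either wildtype DMSO array, or without either deficient digoxin array, the granule count was 2, Nkg7 and Gzmb, and the NK receptor count was 1 or 2.

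The markers of other cells were set beside these rises, since more cells of a type and more RNA per cell cannot be told apart in bulk samples. Of 7 NK and innate lymphoid markers, 2 were called, Klrd1 and Klrc1, beside 0.528% of all genes called higher. Both are also in the receptor list. All 7 markers lay above 0 (median 0.28), as 10310 of all 18193 genes did. The defining NK gene Ncr1 had values of 0.03 and 0.26 in the level range from 2 to 4 (0.14, adjusted p = 0.664), and Tyrobp, an adaptor of NK and myeloid cells, 0.16 and 0.39 in the same range (0.28, adjusted p = 0.407). By array, the median of this marker list was 0.20 and 0.36 in deficient digoxin and 0.00 in both wildtype DMSO arrays. Of 6 CD8 T cell markers only Klrk1 was called, beside the same 0.528% of all genes. Cd8a (0.14, adjusted p = 0.645) and Cd8b1 (0.14, adjusted p = 0.631) were not called. The medians were 0.17 for 7 B cell markers, 0.20 for 10 myeloid markers, 0.29 for 3 erythroid markers, 0.12 for 2 gamma delta T cell markers and 0.09 for 5 mast cell and basophil markers, with no gene called. The CD4 T cell genes had a median of 0.20. The part of other cells in the rises was not tested.

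**Figure D3:**
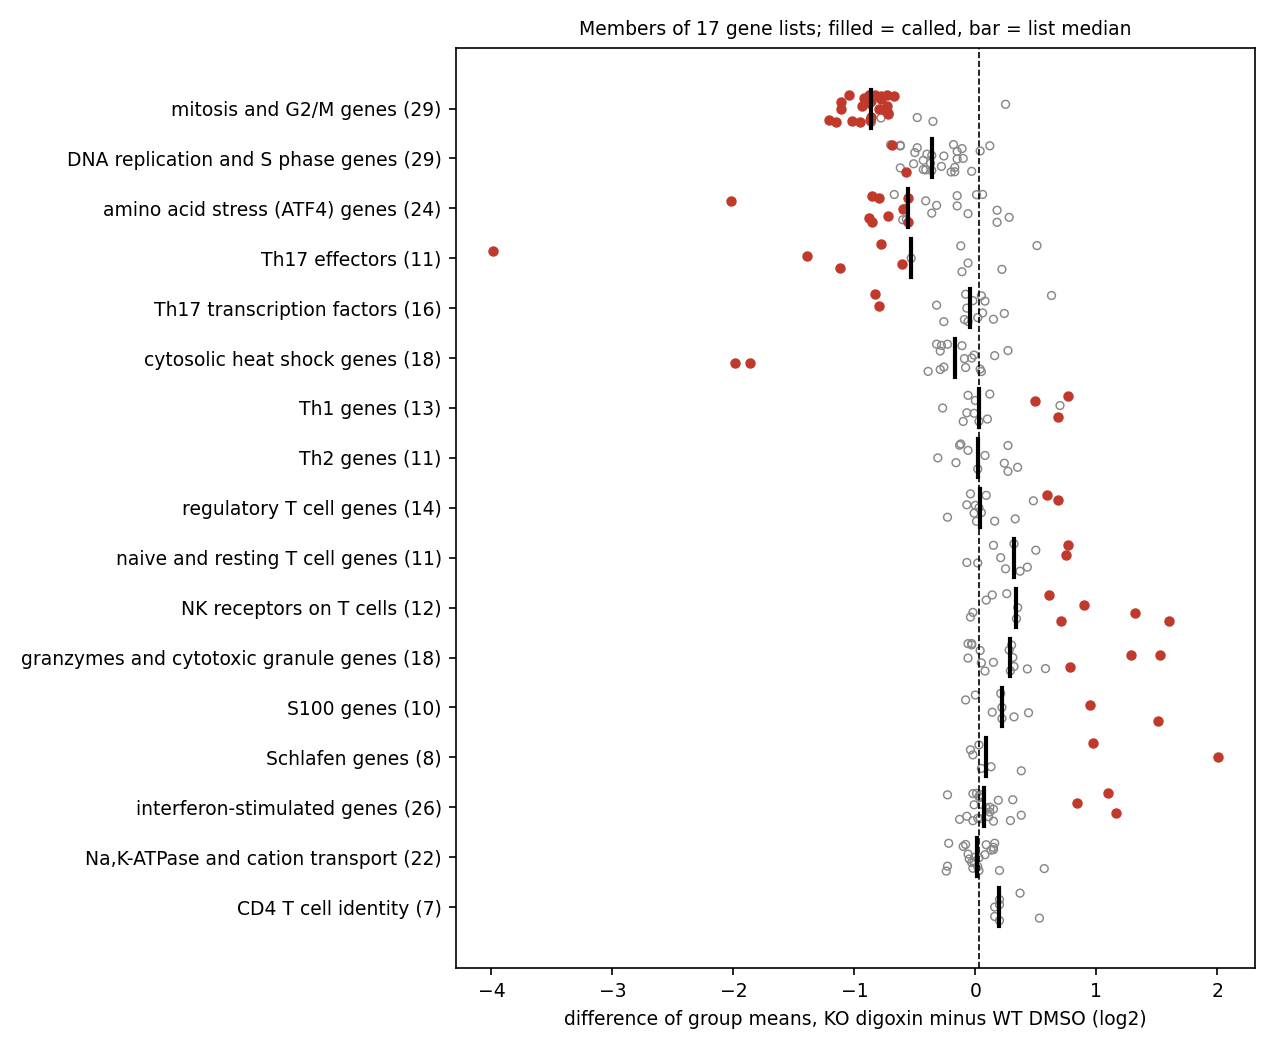
Each point is a measured member of a gene list (number of members in parentheses); the horizontal axis is the difference of group means in log2 (RORγt-deficient digoxin minus wildtype DMSO), filled points were called by limma, thick bars are list medians and the dashed line the median of all genes (0.03). The mitosis list lies lowest with a median of -0.86, and the NK receptor list lies highest with a median of 0.34.

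S100a6, a calcium-binding protein gene, had values of 1.56 and 1.46 and rose 2.85-fold (1.51 ± 0.14, adjusted p = 0.00104). It stood at 1.67 and 1.49 after RORγt loss alone but at 0.51 and 0.12 after digoxin alone, so the deficient arrays lay apart from both wildtype groups. Another gene of the family, S100a4, had 1.13 and 0.76 (0.95 ± 0.17, adjusted p = 0.0271), with 1.32 and 1.18 after RORγt loss alone and -0.63 and -0.20 after digoxin alone. For S100a4 the digoxin arrays of wildtype cells were thus the lowest of all 8. The difference between deficient and wildtype cells under digoxin was 1.36 for S100a4 (adjusted p = 0.0633) and 1.19 for S100a6 (adjusted p = 0.0618), neither called. These 2 were the only called members of 10 S100 genes (median 0.22), beside 0.528% of all genes called higher, and S100a4 was not called when any 1 of the 4 compared arrays was left out.

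Of 26 interferon-stimulated genes, 3 rose (median 0.07), beside 0.528% of all genes called higher. Ifitm1, a membrane protein that restricts viruses, had values of 1.19 and 1.13 (1.16 ± 0.11, adjusted p = 0.00168). Gbp2, an interferon-induced GTPase, had 1.13 and 1.07 (1.10 ± 0.11, adjusted p = 0.00223) and Zbp1, a sensor of nucleic acids, 0.94 and 0.73 (0.84 ± 0.12, adjusted p = 0.0097). The call of Zbp1 was lost when any 1 of the 4 compared arrays was left out. Among 24 chemokine and homing genes, Gpr15, a receptor that directs T cells to the colon, rose 2.13-fold with values of 1.13 and 1.06 (1.09 ± 0.12, adjusted p = 0.00293), Cxcr3 and the chemokine gene Ccl4 (0.55, adjusted p = 0.043) rose, and Ccr6 fell. Cd86, a costimulatory ligand, had 1.03 and 0.96 (1.00 ± 0.10, adjusted p = 0.00223), the only call among 18 activation genes on the chosen probe sets, and was called with each of the 8 arrays left out. Cd80, a related ligand, was not called on its chosen probe set (0.60, adjusted p = 0.29), but when all probe sets were tested 2 others passed (1.04, adjusted p = 0.0057, and 0.76, adjusted p = 0.0282) and the last gave -0.34. With the mean of each gene's probe sets 2 members of the list were called. In the TNF superfamily, Tnfrsf23, a decoy receptor gene (1.04, adjusted p = 0.0148), and Tnfsf4, which encodes the OX40 ligand (0.54, adjusted p = 0.0354), were the called members of 26, and the mean of probe sets added 1 called lower. Beside the chemokine, activation and TNF counts stand 0.528% of all genes called higher and 1.05% called lower. The calls in the chemokine and TNF lists were lost without either deficient digoxin array.

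The remaining leading rises were Moxd1, a monooxygenase-like gene (1.27 ± 0.14, adjusted p = 0.00293), Bst1, a cell surface ectoenzyme (1.26 ± 0.15, adjusted p = 0.00431), Stom, a membrane scaffold protein (1.17 ± 0.18, adjusted p = 0.0136), and Epcam, an adhesion molecule (1.10 ± 0.21, adjusted p = 0.037). Probe sets disagreed for 3 of these genes. Epcam's other probe set gave 0.09, that of Bst1 0.29, and those of Stom ran from 0.00 to 1.26. Epcam also had unequal deficient digoxin arrays, at 1.47 and 0.74.

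Among 19 clock genes only Nr1d2, a nuclear receptor of the clock that recognises half-sites related to those of RORγt, was called, against 2 genes with the mean of each gene's probe sets. It had values of -0.89 and -1.10 against 0.08 and -0.08, with -0.69 and -0.71 after RORγt loss alone and -0.67 and -0.71 after digoxin alone (combined -0.99 ± 0.11, adjusted p = 0.00374). The deficient digoxin arrays lay below the singly perturbed arrays, which lay together. Its other probe set gave -0.43. With Vdr it was 1 of 2 called among 27 nuclear receptors (median 0.02). Over all genes, 1.05% were called lower and 0.528% higher, shares that stand beside each list of this paragraph. Of 20 immediate early genes, Fosl2 and Atf3 (-0.51, adjusted p = 0.0323) fell and Dusp2 (0.55, adjusted p = 0.0453) rose. None of the 20 was called when any 1 of the 4 compared arrays was left out, and Dusp2 was not called when any 1 of the 8 was. Tgif1, a repressor in TGF-beta signalling, was the only call of 22 genes of that pathway (-0.50, adjusted p = 0.0419) and was not called when any 1 of the 8 arrays was left out.

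Several lists had no called member. The 22 measured genes of the Na,K-ATPase and cation transport, the known target of digoxin with its regulators and related pumps, had a median of 0.01 and a range from -0.24 (Slc8a2) to 0.57 (Fxyd7, adjusted p = 0.25). The lists of STAT and SOCS genes (19 measured, median 0.03), glycolysis and hypoxia (24, 0.00), and sterol and fatty acid synthesis (23, 0.02) had medians near 0. Of 25 genes of Myc and ribosome biogenesis, 22 lay below 0 (median -0.12), beside 7883 of all 18193 genes. All 9 liver X receptor targets lay above 0 (median 0.14), beside 10310 of all 18193 genes. T cell receptor and NF-kB signalling (22 measured, median -0.05) and follicular helper genes (14, 0.04) had no call on the chosen probe sets, but 2 called lower and 1 called higher with the mean of each gene's probe sets. Nfkbia, an inhibitor of NF-kB, stood at -0.51 (adjusted p = 0.102), and of its other 4 probe sets, tested among all probe sets, 2 passed (-0.74, adjusted p = 0.0196, and -0.77, adjusted p = 0.013). Slamf6, a receptor of the SLAM family, stood at 0.60 (adjusted p = 0.131), with other probe sets at 0.94 (adjusted p = 0.0313) and -0.06. At 2 arrays per group the median standard error of a difference was 0.126, so a change much smaller than the called ones was not detectable for most of these genes.

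Whether the combined change equalled the sum of the single changes was tested as the departure from additivity on the log2 scale. No gene passed (0 of 18193, 0%), with 562 at an unadjusted p under 0.05 and a median standard error of 0.178. The 562 were fewer than the share of 0.05 expected if no gene departed. The smallest p was that of Iyd, whose single changes summed to -6.31 against a combined -3.81, a departure of 2.49 ± 0.26 (adjusted p = 0.0521). Its interval, 1.91 to 3.08, lay away from 0. Plac8 (-1.37, adjusted p = 0.116), Klrd1 (-1.13, adjusted p = 0.15), Il10 (-1.34, adjusted p = 0.221), Ppp1r14c (1.31, adjusted p = 0.221) and Serpinb5 (-0.92, adjusted p = 0.288) came next. In all 5 of these the combined change was smaller in size than the sum. Serpinb5, a serpin known from epithelia, stood at 0.44 and 0.35 with both perturbations and at 0.38 and 0.30 after RORγt loss alone, against 0.97 and 0.99 after digoxin alone. Its combined change was 0.40 (adjusted p = 0.109) on this probe set, while another gave 0.89 and passed when all probe sets were tested (adjusted p = 0.00712), and the other two gave 0.45 and 0.48.

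Il17a and Gap43 lay closer to their sums. The departure of Il17a was 0.51 (interval 0.12 to 0.90), from a sum of -4.50. That of Gap43 was 0.27 (interval -0.13 to 0.67), from a sum of -2.25. These intervals are per gene, with no adjustment for the number of genes. Iyd was called under array weights, under the variance trend, after quantile normalisation, with the mean of probe sets per gene and without wildtype digoxin replicate 1, each giving 1 called gene.

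Genes called in the combined comparison whose deficient digoxin mean lay farthest beyond the nearer single group were, after Il17a (by 1.60) and Gap43 (by 0.84), Hsd17b11 (by 0.48), Plac8 (by 0.45), Bst1 (by 0.42), Ska3 (by 0.42), Vat1l (by 0.39) and Ifi209 (by 0.39). Genes named only by a clone or locus number were left out here too. Hsd17b11, a lipid droplet dehydrogenase, had values of 0.51 and 0.80 with both perturbations against 0.12 and 0.05 after RORγt loss and 0.22 and 0.12 after digoxin (combined 0.65 ± 0.13, adjusted p = 0.048). Its call was lost with any 1 array left out, and its other probe sets gave 0.08 to 0.25. Ska3, a spindle and kinetochore protein, had -1.05 and -0.99 against -0.40 and -0.79, and 0.09 and -0.57 (combined -1.02 ± 0.20, adjusted p = 0.0391). Ifi209, an interferon-inducible nuclear protein, had 1.23 and 0.80 against 0.72 and 0.54, and -0.05 and 0.29 (combined 1.01 ± 0.16, adjusted p = 0.0154). Its other probe set gave 0.57 (adjusted p = 0.0553), and the call was lost when any 1 of the 4 compared arrays was left out. None of these genes other than Il17a passed the test of an added step.

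**Figure D4:**
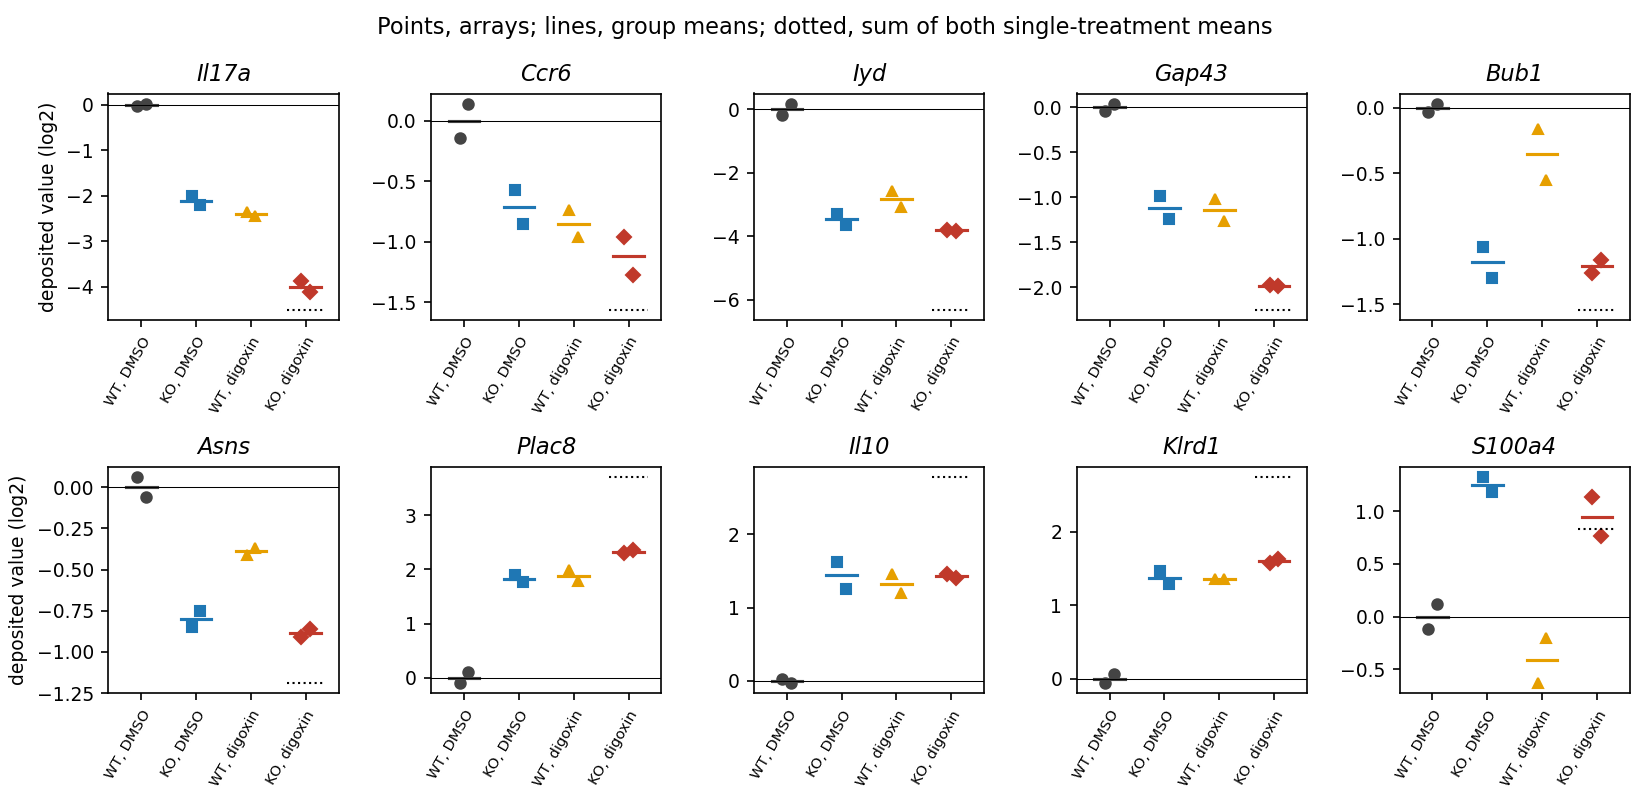
Deposited log2 values (vertical axis) of 10 genes in the 4 groups of 2 arrays, with KO for RORγt-deficient and WT for wildtype; points are arrays, solid lines group means and the dotted line the sum of both single-perturbation means. The combined mean of Il17a (-3.99) lies far below both single groups, that of Iyd (-3.81) lies well above its dotted sum of -6.31, Bub1 and S100a4 follow the genotype, and the 6 perturbed arrays of Il10 lie together.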

How the data were processed

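Per the submitters' processing notes, array intensities were summarised with RMA, and the series' design text names GeneSpring GX 11.5. The table deposited by the authors holds log2 values of 45101 probe sets. Both wildtype DMSO values of a probe set added to 0 (tolerance 1e-06), so each deposited log2 value is a difference from their mean, a step that no label records. Absolute levels were removed by it. RMA and the number precision point to base 2, and the precision also gave the level ranges.

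Probe sets with 1 gene symbol (34945 without controls) were reduced to 1 per gene by a fixed order of suffixes, _at before _a_at before others, giving 18193 genes. Where limma 3.58.1 in R 4.3.3 was used, the 4 group means were fitted to all 8 arrays (4 residual and 5.8 prior degrees of freedom), with two-sided tests and Benjamini-Hochberg adjustment over all genes of a comparison. The procedure was tested on simulated data with independent arrays. Those lack the correlated deviations that same-numbered arrays of the perturbed groups showed. Values after ± are standard errors with n = 2 arrays per group, and intervals are 95% intervals from the same fit. The titles call the arrays biological replicates and do not say that animals or cultures were separate. The p-values therefore cover only the spread between these arrays.

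The comparison and the 43 gene lists were chosen with earlier results of these data known. The genes named were the 15 largest called rises and falls, up to 4 members per list by smallest p, a set of T helper genes (Rora, Tbx21, Gata3, Foxp3, Il2, Il4, Il10, Il17a, Ifng, Il1r1, Ccr6, Ccl20), the 6 smallest p-values of the departure from additivity, and up to 8 called genes farthest beyond the nearer single group. The leading rises and falls had to show no overlap between the compared arrays, which held for all 287 called genes. Genes named only by a clone or locus number were left out of the leading rises and falls. They were also left out of those farthest beyond the nearer single group. Genes outside these rules are marked where named. Alternatives were each array left out, the 4 compared arrays alone, array weights, a variance trend on the level range, quantile normalisation, a replicate block, a filter on low values, the mean of a gene's probe sets, all probe sets, and stricter thresholds. Promoter windows are from RefSeq (GRCm38.p6). Some items are not reported here.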

Additional observations from a re-analysis of the deposited data

Results flagged for a closer look

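The control probe sets for 18S ribosomal RNA (3 per array), which enter no comparison, stood above both wildtype DMSO arrays (0.72 and -0.72) on deficient digoxin replicate 2 (1.62), deficient DMSO replicate 2 (1.58) and wildtype digoxin replicate 2 (1.76). The replicate 1 arrays of the same groups were lower, at -0.43, -0.25 and -2.37 in the same order, so replicate 1 lay below replicate 2 in all 3 perturbed groups.

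The 9 probe sets of the bioB, bioC, bioD and cre hybridisation spikes averaged 0.05 and -0.05 on the wildtype DMSO arrays. They were higher on deficient digoxin replicates 1 (0.19) and 2 (0.51), on deficient DMSO replicates 1 (0.14) and 2 (0.52) and on wildtype digoxin replicate 2 (0.29), and lower on wildtype digoxin replicate 1 (-0.23).

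Of 10092 probe sets without a single gene symbol, 43 (0.426%) were called between deficient digoxin and wildtype DMSO when all probe sets were tested, 22 higher and 21 lower, with differences from -2.55 to 1.95. Over all probe sets 424 (0.941%) were called.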

How the results depend on the processing

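Of 70 called genes that the naming rule covers, none changed direction under any setting. The reported 287 calls ranged from 25 to 307 with 1 array left out. They became 444 with the variance trend and 10 (4 higher, 6 lower) after quantile normalisation, which by construction gives every array the same spread although the wildtype DMSO arrays are the centre of the values. At an adjusted p under 0.01 there were 77, and 56 with a change of at least 1 on the log2 scale. The split of higher against lower calls moved to 13 and 12 without deficient digoxin replicate 2 and to 20 and 23 without wildtype DMSO replicate 2, from 96 and 191. Of these 70, between 20 and 66 were called with 1 array left out and 9 after quantile normalisation. The number of lists with a median below that of all genes, 20 as reported, stayed between 16 and 20.

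For digoxin added to RORγt loss, 1 call became 0 after quantile normalisation. For RORγt loss added to digoxin, 1 call ranged from 0 to 2 with 1 array left out, and was 23 with the variance trend, 0 after quantile normalisation, 2 with the mean of probe sets and 2 with the replicate block. The departure from additivity, with 0 calls, had from 0 to 1 with 1 array left out and 1 with array weights, the variance trend, quantile normalisation or the mean of probe sets.

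Deviations of same-numbered arrays correlated between -0.242 and 0.454, negatively in all 3 pairs with wildtype DMSO, so the numbers were not taken to pair arrays. As a replicate block they gave 324 calls in the combined comparison, 276 of them among the 287, and lost 1 of the 70 genes. Crossing the numbers of the wildtype DMSO arrays, chosen after seeing the data, gave 783 calls, 1 and 27 in the added steps and 2 in the departure. With the 18S covariate, also chosen after seeing the data, the counts were 576, 2 and 7, and 2 in the departure. The cause of these shifts was not tested.

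Genes that were not called and lay near 0 changed sign. With 1 array left out, Foxp3 ranged from -0.23 to 0.22, Gata3 from -0.19 to 0.23 and Il4 from -0.15 to 0.02. Without wildtype DMSO replicate 2, Foxp3 stood at 0.12, Ifng at 0.03 and Gata3 at -0.04. Without wildtype DMSO replicate 1, Il4 stood at 0.02. Without deficient digoxin replicate 1, Foxp3 stood at 0.22 and Rora at -0.05. Without deficient digoxin replicate 2, Ifng stood at 0.19, Gata3 at -0.19 and Hba-a1, an erythroid gene, at -0.01. After quantile normalisation Ifng stood at 0.00 and Gata3 at -0.02. The number of arrays and probe sets near background limit what could be detected.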
